A study of Mus musculus with 4 samples.

Results

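The Fc gamma receptor genes described here are Fcgr1, Fcgr2b, Fcgr3, Fcgr4 and Fcer1g, 5 of the 32285 genes in the deposited feature list, chosen by symbol. They were followed across marker-gated cell classes of CD45+ cells sorted from livers of female C57BL/6 mice and profiled by 10x Genomics 5′ single-cell RNA sequencing. There were 4 groups with 1 library each. The young WT library came from untreated WT mice that were 8 weeks old by the labels. The other 3 libraries came from mice that were 36 weeks old by the labels, had received diethylnitrosamine (DEN), a liver carcinogen, at 25 mg/kg by intraperitoneal injection at 14 days of age, and were put on a choline-deficient diet with 60% fat (CDHFD) after weaning at 21 days. These were WT, miR-146a-/- and double-knockout (DKO, miR-146a-/- Ccl5-/-) mice, and both deletions were germline. How many mice went into a library is not given, and no group had a replicate.

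Fc gamma receptors bind the constant part of IgG and so couple antibody to phagocytes, dendritic cells, NK cells and B cells. The products of Fcgr1, Fcgr3 and Fcgr4 are activating receptors that depend on the signaling chain encoded by Fcer1g, which carries an ITAM and recruits Syk, and NK-cell receptors use the same chain. The product of Fcgr2b is the inhibitory receptor, which carries an ITIM, recruits the phosphatase SHIP1 (Inpp5d) and is the only Fc gamma receptor of mouse B cells. In the liver, macrophages and sinusoidal endothelium take up immune complexes through these receptors.

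The young WT library held 10985 cells and 90756272 UMIs (molecules counted by their barcodes), the DEN-CDHFD WT library 9120 cells and 103165826 UMIs, the miR-146a-/- library 8393 cells and 88706063 UMIs, and the DKO library 10623 cells and 103147246 UMIs. After filtering, 36286 of 39121 cells were kept, with medians of 6782, 8210, 7910 and 7558 UMIs per cell in the same order, in which values for the 4 libraries are given throughout. Pairs of libraries shared between 109 and 150 cell barcodes. Marker gates that used no Fc receptor gene placed 28255 kept cells in 19 classes. Cells with both T-cell and myeloid transcripts were left out of all classes, and they made up 2.71%, 11%, 7.95% and 6.65% of the kept cells. A level is the sum of the UMIs of a gene over all UMIs of the class, scaled as CPM, with an exact 95% Poisson interval that covers counting error only.

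The deletions were checked first. Ccl5 stood at 6174, 12544 and 12496 CPM over all kept cells of the young WT, DEN-CDHFD WT and miR-146a-/- libraries and at 65.4 CPM in the DKO library. The Ccl5 label of the DKO library was thus borne out by a level far below that of the other libraries, although it was not 0. No feature starting with Mir146 was in the gene list, so the loss of miR-146a could not be checked from the counts.

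In the GENCODE M21 annotation of GRCm38, Fcgr1 (ENSMUSG00000015947) lies alone at chr3:96282909-96293969 on the minus strand. The other members lie within 275.7 kb of chromosome 1. They are Fcgr2b (ENSMUSG00000026656) at chr1:170958617-170976547 on the minus strand, Fcgr4 (ENSMUSG00000059089) at chr1:171018920-171029761 on the plus strand, Fcgr3 (ENSMUSG00000059498) at chr1:171051174-171064935 on the minus strand and Fcer1g (ENSMUSG00000058715) at chr1:171229572-171234365 on the minus strand. Fcgr4 thus sits between Fcgr2b and Fcgr3 and is the only member read from the plus strand. Annotated transcripts of Fcgr2b and Fcgr3 shared 166 distinct stretches of 50 bases, 4.48% of those of Fcgr2b and 10.2% of those of Fcgr3, and no other pair of members shared any. In the first 500 bases of the transcripts, which 5′ reads cover most, 11.1% of the stretches of Fcgr2b-201 and 19.7% of those of Fcgr3-201 were shared. These stretches begin at positions 402 and 313, and Fcgr2b-204 and Fcgr3-202 shared none there. How reads of this pair were assigned was not tested.

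The promoters of the 4 ligand-binding receptor genes are shown to let their letters be compared, since all 4 passed 1.5-fold in patrolling monocytes, 3 of them on chromosome 1 and Fcgr1 on chromosome 3. Each sequence runs from 250 bases before the RefSeq start site to 50 after it (GRCm38.p6, RefSeq). All 5 members matched the promoter table. Fcgr3 had 2 start sites there, and only the first was searched and is shown. The motifs searched on both strands were GAGGAA (PU.1 type), TTCNNNGAA (STAT type), TTNNGCAA (C/EBP type), GAAA repeated after 2 bases of any kind (interferon response type) and GGGA followed after 4 bases of any kind by CC (NF-kB type). Capitals mark the matches, and a match on the minus strand appears as its reverse complement.
Fcgr4, chr1:171018676-171018975, plus strand: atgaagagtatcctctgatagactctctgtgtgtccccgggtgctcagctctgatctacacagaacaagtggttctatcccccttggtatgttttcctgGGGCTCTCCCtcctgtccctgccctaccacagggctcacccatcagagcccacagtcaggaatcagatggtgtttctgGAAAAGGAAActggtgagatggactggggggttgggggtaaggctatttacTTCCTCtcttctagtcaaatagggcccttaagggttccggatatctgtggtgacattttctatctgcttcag
Fcgr1, chr3:96293920-96294219, minus strand: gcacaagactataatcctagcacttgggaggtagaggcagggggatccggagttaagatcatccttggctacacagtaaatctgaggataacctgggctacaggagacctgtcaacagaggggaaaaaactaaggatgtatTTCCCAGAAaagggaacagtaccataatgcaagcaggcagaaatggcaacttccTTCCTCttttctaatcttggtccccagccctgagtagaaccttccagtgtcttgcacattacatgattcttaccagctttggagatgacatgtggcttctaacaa
Fcgr2b, chr1:170976022-170976321, minus strand: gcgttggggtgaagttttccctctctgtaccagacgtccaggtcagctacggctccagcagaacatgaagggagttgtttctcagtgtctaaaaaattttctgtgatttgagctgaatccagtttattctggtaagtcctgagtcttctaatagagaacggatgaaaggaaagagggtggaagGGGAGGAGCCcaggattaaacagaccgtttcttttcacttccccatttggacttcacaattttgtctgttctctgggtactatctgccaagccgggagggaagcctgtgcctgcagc
Fcgr3, chr1:171059354-171059653, minus strand: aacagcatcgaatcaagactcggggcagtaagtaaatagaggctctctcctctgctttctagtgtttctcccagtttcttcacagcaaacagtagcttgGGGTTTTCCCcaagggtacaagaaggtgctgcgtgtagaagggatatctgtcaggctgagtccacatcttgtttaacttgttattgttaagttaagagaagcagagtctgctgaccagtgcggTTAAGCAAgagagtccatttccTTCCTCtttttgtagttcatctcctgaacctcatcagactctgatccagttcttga
GAGGAA was found in Fcgr1, Fcgr3 and Fcgr4, and 28.3% of 32841 promoters of this length hold it. Among the windows searched, the repeat of GAAA was found in Fcgr4 alone (3.44% of promoters), TTCNNNGAA in Fcgr1 alone (8.30%) and TTNNGCAA in Fcgr3 alone (10.8%). The NF-kB type motif was found in all members except Fcgr1, and 20.7% of promoters hold it. Each match is a match of letters and was not tested as a binding site.

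One group of mice differs from the next by miR-146a, whose mature sequence is shown with its seed (bases 2 to 8) in capitals (RefSeq, chr11:43374435-43374456, minus strand).
mmu-miR-146a-5p: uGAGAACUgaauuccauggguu
The reverse complement of the seed, AGTTCTC, was found in 1 of 4 coding transcripts of Fcgr2b and in no annotated coding transcript of Fcgr1, Fcgr3, Fcgr4 or Fcer1g. Of 21877 coding genes, 24.3% have such a match in a transcript.

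Fcer1g, the shared signaling chain, had the widest reach of the members. In patrolling monocytes its level was 3838, 3675, 4022 and 4224 CPM, in classical monocytes 2967, 3548, 3016 and 3164 CPM, and in C1q macrophages 3062, 3241, 3392 and 4251 CPM. NK cells held 2855, 2200, 2287 and 2531 CPM and ILC1 2785, 2650, 2990 and 3035 CPM, so the innate lymphocytes came near the myeloid classes. After every cell was thinned to 2000 UMIs, at least 1 Fcer1g UMI was found in 98.7%, 96.0%, 97.2% and 99% of NK cells. The chain was thus found in nearly every NK cell of each library.

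Dendritic cells divided by type. cDC2 held 1468, 1454, 1882 and 1839 CPM of Fcer1g and plasmacytoid dendritic cells (pDC) 1209, 1563, 1243 and 1305 CPM, whereas cDC1 held 152, 278, 213 and 273 CPM. Among T cells, Fcer1g was highest in gamma-delta T cells (524, 654, 660 and 1148 CPM) and in T cells that passed no narrower gate (495, 900, 942 and 1189 CPM). In contrast, regulatory T cells held between 105 and 253 CPM and PD-1+ CD8 T cells between 86.1 and 191 CPM. The T-cell gates set no limit on the NK and ILC1 markers Ncr1 and Klrb1c, and the part of NK-cell transcripts in these levels was not tested. B cells should lack the chain, and their level was taken as a background, whose source, such as free RNA, was not tested. They held 26.6, 57.0, 76.6 and 48.5 CPM, and 2.57%, 5.71%, 7.39% and 3.61% of thinned B cells had a UMI.

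Fcgr1 encodes the high-affinity IgG receptor and was restricted to fewer classes. It stood at 120, 108, 85.2 and 72.8 CPM in classical monocytes, at 114, 153, 154 and 111 CPM in C1q macrophages and at 17.3, 32.1, 45.6 and 35.2 CPM in cDC2. C1q macrophages ranked first in the 3 DEN-CDHFD libraries, and in the young WT library the intervals of classical monocytes (94.9 to 150 CPM) and C1q macrophages (82.6 to 154 CPM) overlapped. In NK cells of the young WT library no Fcgr1 UMI was found, which allows up to 0.466 CPM at 3 counts, and in the 4 libraries T cells with an Fcgr1 UMI made up 0.0197%, 0.0602%, 0.140% and 0.0300% after thinning.

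Fcgr3, the low-affinity activating receptor of NK cells and phagocytes, was high in classical monocytes (362, 191, 265 and 283 CPM), C1q macrophages (271, 236, 259 and 219 CPM) and neutrophils (400, 266, 195 and 223 CPM). Neutrophils ranked first in the young WT and DEN-CDHFD WT libraries, on 21 and 24 cells and with intervals that overlapped those of both other classes. Classical monocytes ranked first in the miR-146a-/- and DKO libraries, and in the former their interval overlapped that of C1q macrophages. NK cells held 55.3, 56.5, 54.4 and 63.4 CPM and ILC1 58.5, 49.9, 59.2 and 56.4 CPM. No change past 1.5-fold was found in either innate lymphocyte class between libraries. A Fcgr3 UMI was found in 11.1%, 11%, 9.97% and 13.9% of thinned NK cells, against 1.12%, 1.11%, 0.866% and 1.17% of T cells.

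Fcgr4, the activating receptor for IgG2 subclasses, marked patrolling monocytes in the young WT and DEN-CDHFD WT libraries, where they ranked first of 17 classes, with intervals that overlapped those of neutrophils in both libraries and that of C1q macrophages in the young WT library. It stood at 151, 134, 222 and 325 CPM in patrolling monocytes, at 92.9, 74.9, 240 and 599 CPM in C1q macrophages and at 41.5, 50.9, 49.4 and 74.1 CPM in classical monocytes. In the miR-146a-/- and DKO libraries the first place was taken by a class of macrophage-like cells with Negr1 UMIs, a gene better known in neurons. These cells held 1431 and 1887 CPM of Fcgr4. The class had 1 and 2 cells in the young WT and DEN-CDHFD WT libraries and 20 and 276 in the miR-146a-/- and DKO libraries.

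Fcgr2b, the inhibitory receptor, had the broadest spread of the ligand-binding receptors because it reached B cells. C1q macrophages held 382, 271, 310 and 222 CPM, classical monocytes 339, 216, 205 and 252 CPM (with overlapping intervals in the young WT library) and B cells 140, 153, 182 and 150 CPM. An Fcgr2b UMI was found in 22.0%, 25.2%, 25.2% and 24.1% of thinned B cells, against 1.12%, 0.904%, 0.699% and 1.2% of T cells. NK cells were low, at 6.51%, 4.04%, 3.07% and 2.51%, yet above T cells, with overlapping intervals in the DKO library, whereas ILC1 were at 0.434%, 0.168%, 0 and 0.173%. The 0 of 345 ILC1 in the miR-146a-/- library allows a share of up to 0.870% at 3 counts. The inhibitory receptor thus differed between NK cells and ILC1 beyond counting error in each library, and for Fcgr3 the intervals of both classes overlapped.

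**Figure D1:**
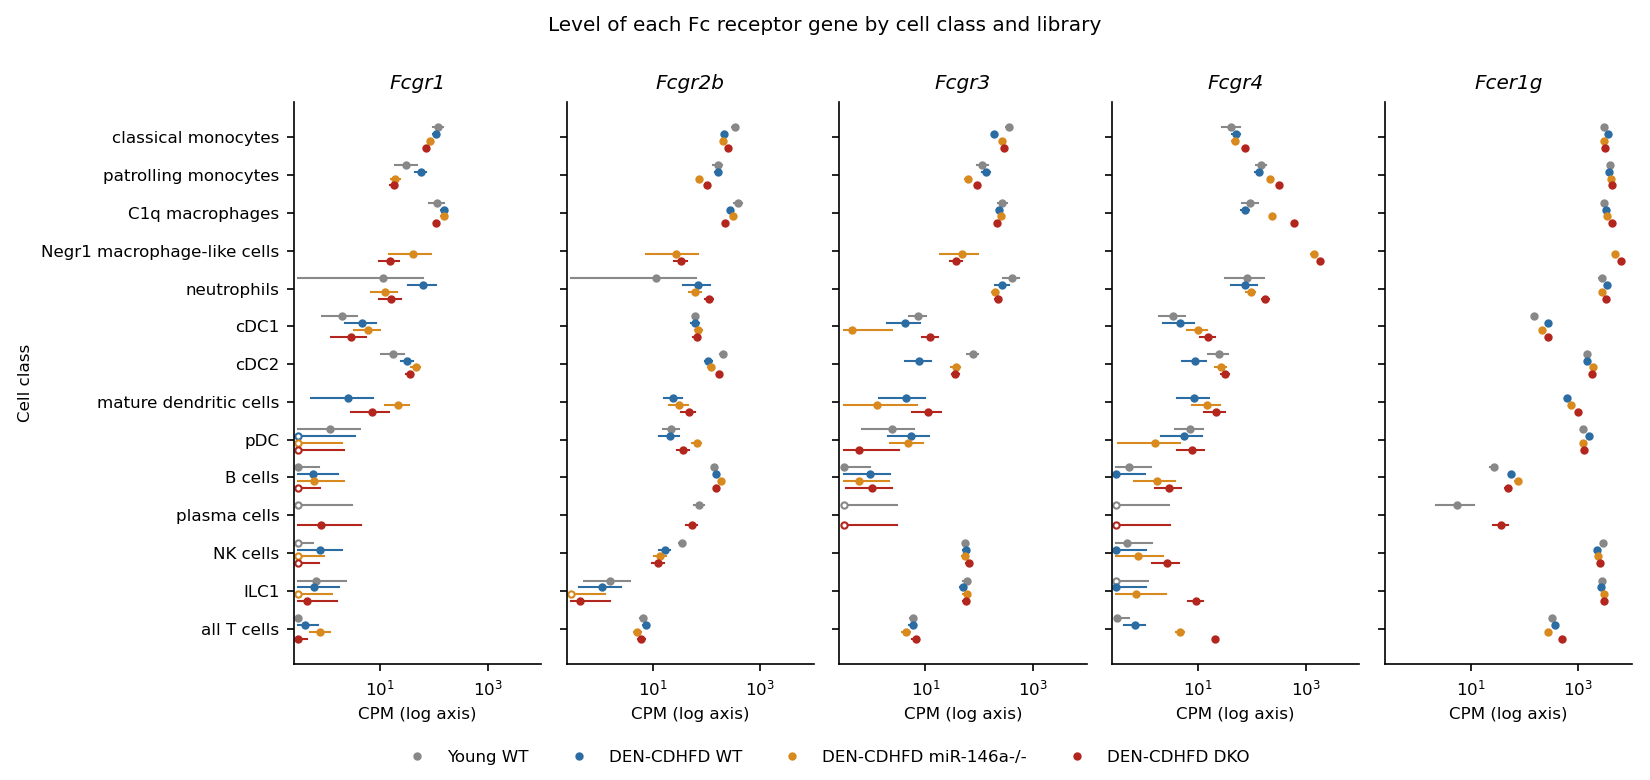
Level of each member in CPM (log axis) by cell class and library. Points are summed levels and lines are exact 95% Poisson intervals; open points at the left edge had no UMI, values under 0.3 CPM are drawn there, and classes with fewer than 20 cells in a library are left out. Fcgr4 in the Negr1 class of the DKO library, at 1887 CPM, lies to the right of all other classes.

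The mix of activating and inhibitory receptors was taken as the summed UMIs of Fcgr1, Fcgr3 and Fcgr4 over those of Fcgr2b, a ratio that is read between classes and libraries and not as protein. In patrolling monocytes it was 1.85, 2.0, 4.12 and 4.20, and in C1q macrophages 1.25, 1.71, 2.11 and 4.19. In classical monocytes it stayed between 1.55 and 1.95. Without Fcgr4, the ratio of patrolling monocytes was 0.909, 1.18, 1.10 and 1.06 and that of C1q macrophages 1.01, 1.44, 1.33 and 1.48. The ratio of 4.19 in DKO C1q macrophages joins unlike cells. Of these, 90 cells with a Negr1 UMI held 1651 CPM of Fcgr4 and 65.2 CPM of Fcgr2b, and 162 without held 229 and 277 CPM. In the miR-146a-/- library the cells without a Negr1 UMI held 211 and 317 CPM. In patrolling monocytes Fcgr2b, Fcgr1 and Fcgr3 were all lower in the miR-146a-/- library than in the DEN-CDHFD WT library, so the higher ratio there goes with a lower Fcgr2b level as well as a higher Fcgr4 level.

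Dendritic cells had lower ratios than both monocyte classes in every library, with intervals apart. The ratio was 0.201, 0.223, 0.233 and 0.457 in cDC1 and 0.578, 0.450, 0.899 and 0.612 in cDC2. In B cells it was at most 0.0260. NK cells stood at 1.60 (interval 1.35 to 1.90) in the young WT library and at 3.45, 4.02 and 5.22 in the others, with Fcgr2b at 34.8, 16.7, 13.7 and 12.6 CPM beside the Fcgr3 levels given above. The NK-cell markers Gzma (11369, 7502, 8730 and 9934 CPM), Prf1 (1467, 841, 1014 and 1073 CPM) and Klra8 (662, 354, 555 and 473 CPM) were also highest in the young WT library. The part of the make-up of the class in the ratio was not tested.

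**Figure D2:**
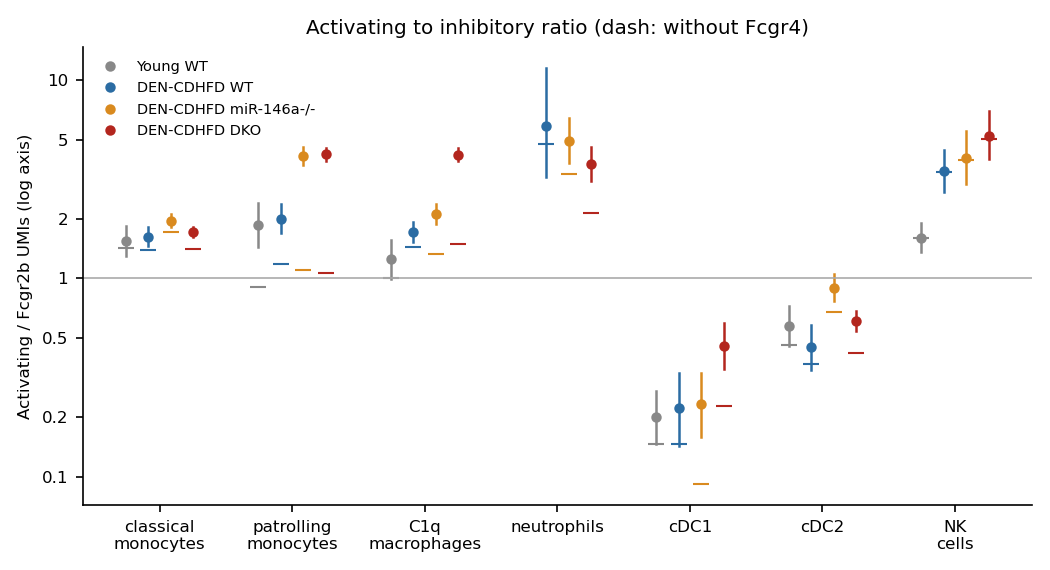
Activating to inhibitory UMI ratio (log axis) by cell class and library. Points are ratios, lines are 95% counting intervals and dashes show the ratio without Fcgr4; young WT neutrophils, with 1 Fcgr2b UMI, are not drawn. Patrolling monocytes reach 4.12 and 4.20 in the miR-146a-/- and DKO libraries, and their dashes lie between 0.909 and 1.18.

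For the comparisons between libraries, a gene was counted in a class when it reached 50 CPM and 20 UMIs in 1 of the 2 libraries, and a change was called past 1.5-fold in either direction. With 1 library a group no test was possible, and the intervals of the ratios cover counting error only. The 7 main classes were classical monocytes, patrolling monocytes, C1q macrophages, conventional dendritic cells (cDC1 and cDC2 together), B cells, NK cells and ILC1. The DEN-CDHFD WT library enters the first comparison and the second, and the miR-146a-/- library enters the second and the third. Over all genes counted, the median log2 ratio of a class lay between -0.05 and 0.07.

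The DEN-CDHFD WT and young WT libraries differ in age and treatment, which cannot be told apart from each other or from differences between single libraries. In classical monocytes the Fc receptors of low affinity were lower in the DEN-CDHFD WT library. Fcgr3 went from 362 to 191 CPM, and fell by 0.92 on the log2 scale (interval -1.15 to -0.69). Fcgr2b went from 339 to 216 CPM, and fell by 0.65 (interval -0.88 to -0.42). In the same cells the log2 ratio was -0.16 for Fcgr1, 0.27 for Fcgr4 and 0.26 for Fcer1g. Cells whose classical list reached at least 3 times the patrolling list, a restriction chosen after seeing the data, held 304 and 261 CPM of Fcgr2b, a log2 ratio of -0.22, and 435 and 209 CPM of Fcgr3 (-1.06). The change in Fcgr3 thus passed 1.5-fold in these purer cells and that in Fcgr2b did not. In the whole class the marker Plac8 stood at 2466.5 and 2553.4 CPM, Ifitm6 at 313.9 and 160.7 CPM and Fn1 at 410.8 and 269.8 CPM. Ifitm6 and Fn1 were thus also lower in the DEN-CDHFD WT library. The part of the make-up of the class in the result was not tested.

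In patrolling monocytes Fcgr1 rose from 30.8 to 57.2 CPM (log2 ratio 0.87, interval 0.15 to 1.70), on 19 and 74 UMIs. In the cells whose patrolling list reached at least 3 times the classical list, also chosen after seeing the data, it was at 11.5 and 51.3 CPM (log2 ratio 2.06). Fcer1g rose from 414 to 819 CPM in conventional dendritic cells (log2 ratio 0.98, interval 0.90 to 1.06). The class held 190 cDC1 and 67 cDC2 in the young WT library and 92 and 103 in the DEN-CDHFD WT library. Within cDC2 the level was 1468 and 1454 CPM, and within cDC1 152 and 278 CPM. Fcer1g also rose in B cells, from 26.6 to 57.0 CPM (log2 ratio 1.10, interval 0.84 to 1.36), at the low level described above.

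Of 23 member and class pairs, 5 (21.7%) passed 1.5-fold in this comparison, 3 upward and 2 downward, and the median log2 ratio was -0.06. Over all genes 10% of 24435 pairs passed in the same classes, with 14.1% in classical monocytes, 15.1% in patrolling monocytes and 18.9% in C1q macrophages, where no member passed. Classical monocytes numbered 48 and 195 cells and patrolling monocytes 72 and 114. Fcgr2b in classical monocytes no longer passed when gates were set on thinned cells, when the mixed cells were kept or as a mean over cells. Fcgr1 in patrolling monocytes fell under the minimum level with thinned gates and with mixed cells kept, where its log2 ratios were 0.69 and 0.73.

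The miR-146a-/- library was next set against the DEN-CDHFD WT library, which had the same treatment and age. The changes past 1.5-fold lay in C1q macrophages and in patrolling monocytes, the blood-vessel surveying monocytes. In the latter, receptor genes moved in opposite directions. Fcgr4 rose from 134 to 222 CPM (log2 ratio 0.73, interval 0.50 to 0.97). Fcgr2b fell by 1.15 on the log2 scale (163 to 73.4 CPM, interval -1.39 to -0.91), Fcgr3 fell by 1.12 (134 to 61.9 CPM, interval -1.38 to -0.85) and Fcgr1 fell by 1.59 (57.2 to 19 CPM, interval -2.02 to -1.14). The chain that the activating receptors share, Fcer1g, was at 3675 and 4022 CPM, a log2 ratio of 0.13.

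Shares of single cells were counted as well. After thinning, a Fcgr4 UMI was found in 27.8%, 26.3%, 36.6% and 44.9% of patrolling monocytes, against 0.0986%, 0.151%, 0.894% and 2.82% of T cells, with median depths of 7234, 10484, 7281 and 6736 UMIs in patrolling monocytes and 7293, 7543, 7061 and 6594 in T cells before thinning. A UMI of Fcgr1, Fcgr2b or Fcgr3 was found in 43.1%, 46.5%, 14.7% and 23.6% of patrolling monocytes. For these 3 receptors the interval of the miR-146a-/- library (12% to 17.8%) lay apart from those of the young WT (31.4% to 55.3%) and DEN-CDHFD WT (37.1% to 56.1%) libraries. For Fcgr4 its interval (32.7% to 40.6%) overlapped those of both (17.9% to 39.6% and 18.5% to 35.4%).

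The purity of the class moved with this result. Cells whose patrolling list reached less than 3 times the UMIs of the classical list made up 13.9%, 29.8%, 13.8% and 12.9% of patrolling monocytes. Of 3 markers that the gate did not use, Cd300e stood at 248, 74.9, 251 and 257 CPM, Pglyrp1 at 1040, 598, 1055 and 1056 CPM and Nr4a1 at 1500, 1101, 1091 and 997 CPM. The first 2 were thus lowest in the DEN-CDHFD WT library. In the purer cells alone, a restriction chosen after seeing the data, Fcgr4 was at 163, 161, 263 and 385 CPM, Fcgr2b at 146, 150, 56.1 and 78.1 CPM, Fcgr3 at 92.0, 132, 41.8 and 65.7 CPM and Fcgr1 at 11.5, 51.3, 10 and 11 CPM. All 4 genes stayed past 1.5-fold on the same side there, with log2 ratios down to -2.36 for Fcgr1. The purer cells still differed in marker levels, with Cd300e at 282, 91.9, 301 and 319 CPM and Pecam1 at 70.9, 51.3, 318 and 274 CPM. The restriction thus did not make the class alike between libraries, and the part of its make-up in the result was not tested. Of these genes, Fcgr2b and Fcgr3 were low in the miR-146a-/- library against both WT libraries, while Fcgr1 in the purer cells was high in the DEN-CDHFD WT library alone.

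Of other cell types that the sort could hold, the 2 erythroid markers summed to 1091 CPM in patrolling monocytes of the DEN-CDHFD WT library and to at most 2.74 CPM in the others. A single cell with 923 Hbb-bs UMIs gave most of them. The 4 hepatocyte markers summed to 47.0, 13.9, 8.21 and 11.2 CPM with Alb as the most abundant, and the 2 platelet markers to at most 0.175 CPM. The 3 endothelial markers summed to 61.6, 47.9, 262 and 227 CPM. Of this sum Pecam1, which monocytes express as well, gave 61.6, 39.4, 260 and 223 CPM. The part of these cell types in the result was not tested.

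In C1q macrophages Fcgr4 rose from 74.9 to 240 CPM, 3.19-fold (log2 ratio 1.68, interval 1.38 to 1.99). The other members stayed between 0.01 and 0.20 on the log2 scale in these cells. The young WT library, at 92.9 CPM (interval 64.7 to 129), lay with the DEN-CDHFD WT library (62.3 to 89.4) and below the miR-146a-/- library (215 to 267). Cells with at least 3 Fcgr4 UMIs after thinning made up 0, 0, 7.95% and 27.9% of the class, where the counts of 0 allow up to 9.38% and 2.56% at 3 counts. Cells with any Fcgr4 UMI made up 12.5%, 15.4%, 22.7% and 51.4%, and the intervals of the DEN-CDHFD WT (9.38% to 23.2%) and miR-146a-/- (14.5% to 32.9%) libraries overlapped. These shares come from 1 random draw of 2000 UMIs a cell, and the exact means over all such draws, computed after seeing the data, are 19.5%, 14.3%, 30% and 51%. Thinned to 1000 UMIs, the intervals of the same 2 libraries lay apart (4.03% to 14.7% and 17.3% to 36.6%), as they did without thinning (31.7% to 49.8% and 58.6% to 78.7%). So a larger share of cells in the miR-146a-/- than in the DEN-CDHFD WT library had a Fcgr4 UMI in these 2 counts. The count at 1000 UMIs is also 1 random draw, and its mean over draws is not given. It found a Fcgr4 UMI in 23 of the 88 miR-146a-/- cells, against 20 in the draw of 2000 UMIs, although a smaller draw finds fewer on average. The count without thinning was not matched for depth, and there the interval of the young WT library (39.2% to 74.5%) overlapped both. In the draw of 2000 UMIs 7 of 88 cells held 40 of the 55 Fcgr4 UMIs of the miR-146a-/- library. The 6 markers of Kupffer cells, the resident macrophages of the liver, summed to 149, 185, 10.2 and 118 CPM in the class. Cd5l was the most abundant except in the miR-146a-/- library, where it was Timd4 and where Clec4f, Marco and Folr2 were at 0. The 3 endothelial markers summed to 55.7, 13.4, 71 and 110 CPM there, with Stab2 at 0 in the young WT and DKO libraries, and Pecam1, the most abundant in each library, at 53.1, 6.70, 58.7 and 100 CPM. Pecam1 thus moved with Fcgr4 across the DEN-CDHFD libraries, the make-up of the class differed between libraries, and the part of either in the result was not tested.

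Of 23 pairs, 5 (21.7%) passed 1.5-fold between the miR-146a-/- and DEN-CDHFD WT libraries, 2 upward and 3 downward, with a median log2 ratio of 0.13. All were in patrolling monocytes (4 of 5 members) and C1q macrophages (1 of 5). Over all genes 10% of 24326 pairs passed, with 18.1% in patrolling monocytes, 11.4% in C1q macrophages and 15.3% in classical monocytes, where no member passed. No member passed in conventional dendritic cells, B cells, NK cells or ILC1. Fcgr1 in patrolling monocytes fell under the minimum level when gates were set on thinned cells or mixed cells were kept.

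**Figure D3:**
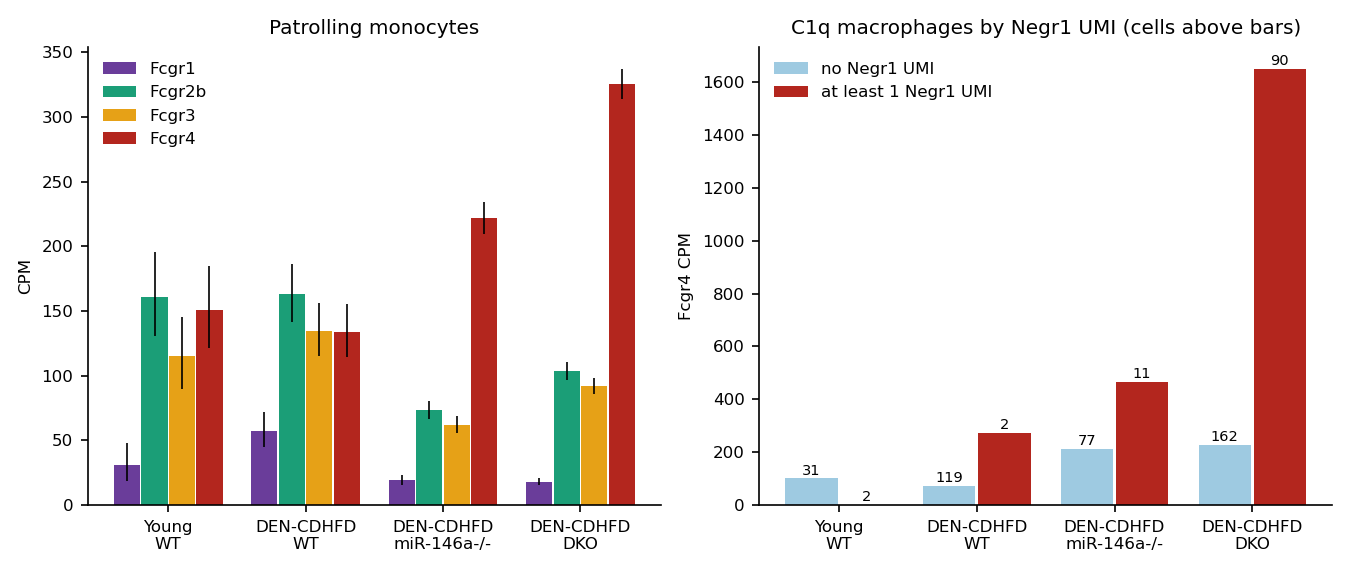
Left, CPM of the 4 receptor genes in patrolling monocytes by library, with exact 95% Poisson intervals. Right, Fcgr4 CPM in C1q macrophages with and without a Negr1 UMI, with the number of cells above each bar. Fcgr4 is at 325 CPM in DKO patrolling monocytes, and 90 DKO C1q macrophages with a Negr1 UMI stand at 1651 CPM.

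The DKO library, which also lacks Ccl5, was then set against the miR-146a-/- library. Fcgr4 was higher still. In C1q macrophages it rose from 240 to 599 CPM (log2 ratio 1.32, interval 1.15 to 1.49), and in classical monocytes from 49.4 to 74.1 CPM (log2 ratio 0.58, interval 0.37 to 0.81), a value at the 1.5-fold limit itself. The 2 platelet markers, Pf4 and Ppbp, summed to 0.188 and 78.8 CPM in these classical monocytes, with Ppbp the more abundant at 0.188 and 39.9 CPM and Pf4 at 0 in the miR-146a-/- library, and their part in the result was not tested. T cells without a Negr1 UMI held 3.87 and 11.8 CPM of Fcgr4 in the miR-146a-/- and DKO libraries. The part of such a background in the classical monocytes was not tested either. In patrolling monocytes Fcgr4 was at 222 and 325 CPM, a log2 ratio of 0.55 (interval 0.46 to 0.65) just short of the limit. There Fcgr2b had a ratio of 0.50 and Fcgr3 one of 0.57, so that both low-affinity receptors had ratios on the same side as Fcgr4, unlike in the comparison before. In B cells Fcer1g fell by 0.66 (76.6 to 48.5 CPM, interval -0.92 to -0.40), at its low level there.

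Negr1 UMIs moved with the rise in C1q macrophages. A Negr1 UMI was found in 2, 2, 11 and 90 cells of the class, or 6.06%, 1.65%, 12.5% and 35.7%. In the DKO library the cells with such a UMI held 1651 CPM of Fcgr4, 65.2 CPM of Fcgr2b and 463 CPM of Fcrl5, and those without held 229, 277 and 32.1 CPM. In the miR-146a-/- library the cells without a Negr1 UMI held 211 CPM of Fcgr4, so without these cells the log2 ratio of the DKO to the miR-146a-/- library was 0.12. That restriction was chosen after seeing the data. Against 72.2 CPM in the DEN-CDHFD WT library, the cells without a Negr1 UMI were still higher in Fcgr4 in both libraries that lack miR-146a. Fcrl5, which was high in the Negr1 cells, stood at 2.87, 0.618, 20.5 and 32.1 CPM in these cells without a Negr1 UMI. It thus moved with Fcgr4 among them, and its part in the result was not tested.

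The Negr1 macrophage-like class itself was high in Fcgr4, and in the DKO library it was low in the other ligand-binding receptors. In the miR-146a-/- library it held 40.3 CPM of Fcgr1 (interval 14.8 to 87.7), at rank 4 of 18 classes. In the DKO library, 86.1% of these cells had a Fcgr4 UMI after thinning and 60.3% had at least 3, while 8.24% had a UMI of Fcgr1, Fcgr2b or Fcgr3. The activating to inhibitory ratio was 58.9 there (interval 45.1 to 78.4). Fcer1g stood at 4923 CPM in the miR-146a-/- library and 6188 CPM in the DKO library, above the monocytes and C1q macrophages of the same library. Fcrl5, a receptor-like gene of B cells, stood at 524 and 450 CPM in the Negr1 class and at 48.5, 63.5, 79.2 and 73.3 CPM in B cells.

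Of 22 pairs, 3 (13.6%) passed 1.5-fold between the DKO and miR-146a-/- libraries, 2 upward and 1 downward, with a median log2 ratio of 0.12. Over all genes 1.96% of 23468 pairs passed, with 1.32% in classical monocytes, 0.771% in patrolling monocytes, where no member passed, and 5.73% in C1q macrophages. Without cells that had a Negr1 UMI 1 pair was past the limit. Fcgr4 in classical monocytes also failed to pass as a mean over cells, with a prior of 5 counts and in the purer cells of that class (log2 ratio 0.44), and Fcer1g in B cells with thinned gates or mixed cells kept.

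**Figure D4:**
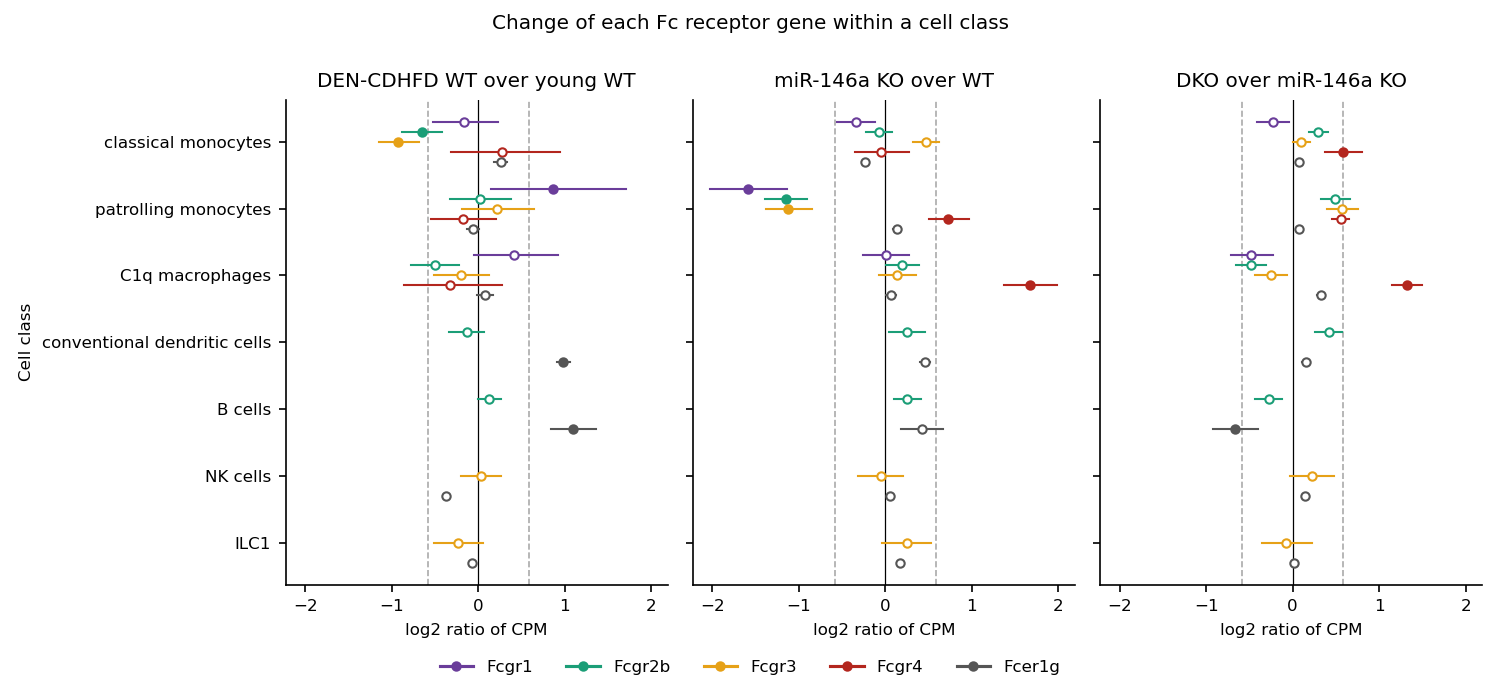
Log2 ratio of each member in the 7 main classes for the 3 comparisons. Points are ratios, filled where past 1.5-fold (dashed lines), lines are 95% counting intervals, and pairs under the minimum level are not drawn. In the middle panel Fcgr4 lies at 0.73 and Fcgr1 at -1.59 in patrolling monocytes.

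The other genes of the pathway, 41 in number, gave a background for the members by role. They were the other Fc receptors, the other ITAM adaptors, the kinases and adaptors, the inhibitors and the oxidase subunits. Between the DEN-CDHFD WT and young WT libraries 8 of 174 pairs passed 1.5-fold, 4 in each direction, with Fgr, a Src-family kinase, in conventional dendritic cells highest (log2 ratio 1.29) and the adaptor Hcst in C1q macrophages lowest (-1.04). The share of cDC2 among conventional dendritic cells rose between these libraries, as given above, and Fgr is not given here for cDC1 and cDC2 apart. Between the miR-146a-/- and DEN-CDHFD WT libraries 11 of 175 passed, 10 upward and 1 downward. In patrolling monocytes 4 of 26 (15.4%) passed there, all upward, beside 18.1% of all genes in that class. These were Hcst (0.98), the exchange factor Vav3 (0.81), the oxidase subunit Ncf4 (0.61) and the kinase subunit Pik3cd (0.60). Between the DKO and miR-146a-/- libraries 1 of 177 passed, Fcrl5 in C1q macrophages (2.26).

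These are shares of 4.6%, 6.29% and 0.565%, beside 10%, 10% and 1.96% of all genes in the same classes. The inhibitors, among them Inpp5d, Ptpn6 and Dok1, had 2 of 20 pairs past the limit in the first comparison and 0 of 21 in the second and the third. The 2 pairs were Dok1 in C1q macrophages (0.72) and in patrolling monocytes (-0.64). Of the IgE receptor, Fcer1a and Ms4a2 were at most at 0.507 and 0.258 CPM over all kept cells, so the IgE partners of Fcer1g were near 0. B cells held the IgM receptor Fcmr at 704, 594, 724 and 731 CPM and the low-affinity IgE receptor Fcer2a at 487, 327, 227 and 287 CPM.

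The likeness of other genes to Fcgr3, Fcgr4 and Fcer1g was taken as Pearson's r of log2(CPM + 10) over 62 sums of a class and library with at least 50 cells, points that share libraries and depth. Of 6741 genes, those most like Fcgr3 were Lrmda (0.907), Pgd, Camk1, Gstm1 and Itgam (0.860). Those most like Fcgr4 were Pparg (0.948), Cd300e, Pilrb2, Pilra and Gm5150 (0.927), and those most like Fcer1g were Tyrobp, the other broadly used ITAM adaptor (0.929), Sh2d1b1, Lrmda, Cers6 and Rbpms (0.841). The lists of Fcgr3 and Fcer1g thus had Lrmda in common, and that of Fcgr4 had no gene in common with either. Among the members, r was highest between Fcgr3 and Fcer1g (0.808) and lowest between Fcgr2b and Fcer1g (0.279).

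Over all kept cells, Fcgr4 went from 7.80 CPM in the young WT library to 17.8, 55.5 and 187 CPM, and Fcer1g from 778 to 1236, 1434 and 2041 CPM. Fcgr1 was at 6.26, 24.2, 21.6 and 20.9 CPM, Fcgr2b at 47.9, 75.2, 70.6 and 85.1 CPM and Fcgr3 at 25.8, 52.0, 56.8 and 70.7 CPM. Fcgr4 thus climbed through all 3 steps, and Fcgr1 made its step between the young WT and DEN-CDHFD WT libraries. These levels mix the shares of the classes with the levels within them. With the class levels of the young WT library and the class shares of the DEN-CDHFD WT library, Fcgr4 would stand at 20.9 CPM, so the first step lay in the shares, among which the mixed T and myeloid cells count as a group of their own. These went from 2.71% to 11% of kept cells and held 52.5% and 58.2% of the Fcgr4 UMIs, so that step includes cells with transcripts of 2 lineages. With the levels of the DEN-CDHFD WT library and the shares of the miR-146a-/- library it would stand at 24.5 CPM, of the 55.5 CPM measured, so the second step lies mostly within these groups. A change in the make-up of a group, such as that of the mixed cells, counts as a change within it. With the levels of the miR-146a-/- library and the shares of the DKO library it would stand at 86.8 CPM, of 187 CPM.

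The cells that held the UMIs changed with the library. Mixed T and myeloid cells held 52.5%, 58.2%, 30.3% and 23.4% of the Fcgr4 UMIs, and patrolling monocytes held 28.7% in the miR-146a-/- library. In the DKO library the Negr1 class held 17.4% of the Fcgr4 UMIs with 2.80% of the kept cells, against 16.4% in patrolling monocytes with 10.2% of the cells. NK cells held 28.2%, 10.9%, 8.04% and 6.39% of the Fcer1g UMIs, and patrolling monocytes 3.63%, 4.58%, 20.2% and 19.5%. B cells held 26.9%, 12.9%, 11.2% and 8.89% of the Fcgr2b UMIs. For Fcer1g and Fcgr2b, lymphocytes thus held a smaller part of the transcripts in the DEN-CDHFD libraries than in the young WT library.

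**Figure D5:**
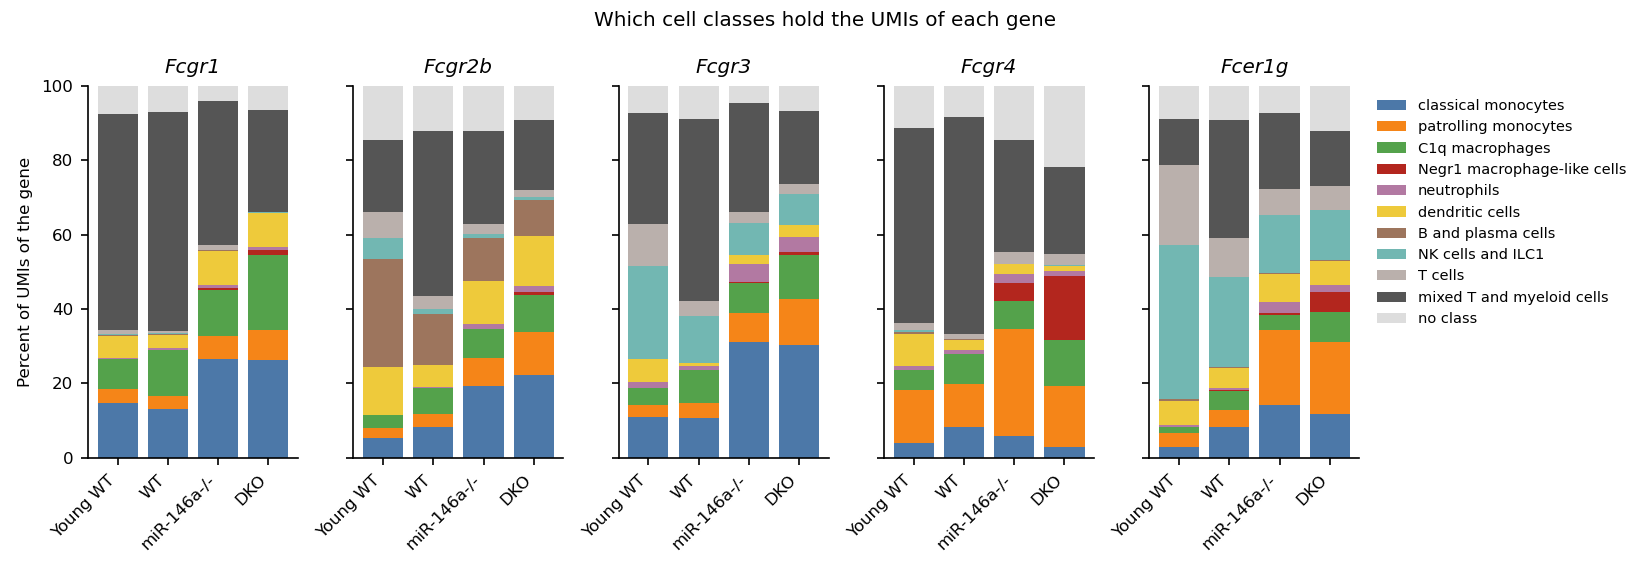
Percent of the UMIs of each member held by each group of cell classes, by library. Bars add up to 100 percent of the UMIs of the gene in kept cells. For Fcgr4, mixed cells hold 58.2% in the DEN-CDHFD WT library and the Negr1 class 17.4% in the DKO library.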

How the data were processed

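The members and gene lists were chosen with earlier results of these data known. The authors aligned reads with Cell Ranger (version 7.0.1 per the file headers, whereas the paper's methods name an earlier version) to mm10. The deposited values are raw UMI counts, as whole numbers without normalization. Cells were kept with 600 to 6000 features and a mitochondrial share of no more than 5%. Classes were gated on raw UMIs of marker lists without any member or pathway gene. After the counts were seen, S100a8 and S100a9 were dropped from the neutrophil gate, Cadm1 and Itgae from the cDC1 gate, Kupffer markers were not used as a gate, gamma-delta constant genes were taken under the symbols of the deposited list, and basophils (4 cells) were not described. Cells above a small limit of UMIs of another lineage's list were left out. The T-cell gates set no such limit on the NK and ILC1 markers Ncr1 and Klrb1c, so T cells with these transcripts stayed in the T classes.

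UMIs were summed per class and library and scaled to CPM, with exact Poisson intervals. They were not divided by gene length, since 5′ UMIs count molecule ends, and levels are compared between classes and libraries only. Log2 ratios used a prior of 0.5 counts and a conditional exact interval. Shares of cells, after thinning to 2000 UMIs, have exact Clopper-Pearson intervals. All cover counting error only, and no p-value is given. The genes named are the members, the pathway genes with the largest rise and fall in a comparison and the 5 genes most like Fcgr3, Fcgr4 and Fcer1g. Those most like Fcgr1 and Fcgr2b are not reported here. Other pathway genes and the receptors of B cells and of IgE were named after their values were seen. The steps ran in Python 3.11.15 with numpy 2.4.6, scipy 1.17.1 and pandas 2.3.3 and in R with edgeR 4.0.16, and were tested on simulated data. Of 12 alternatives for the ratios, 3 were added after seeing the data. They left out cells with a Negr1 UMI, patrolling monocytes whose patrolling list was under 3 times the classical list, and classical monocytes by the reverse rule. For shares of cells the exact mean over all thinning draws was added.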

Additional observations from a re-analysis of the deposited data

How the results depend on the processing

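Across 12 alternatives, 0 of 816 log2 ratios of members changed sign after being past the limit, 738 moved by less than their counting interval and 78 by more. Some of the 816 could not move, so these counts overstate how far the ratios were tried. The minimum of 10 CPM changes only which genes are counted, and each restriction to purer monocytes changes 1 class. Of 36 recounts of pairs past 1.5-fold, 31 stayed within 1.5 times the count given. For DEN-CDHFD WT over young WT the count of 5 became 3 with gates set after thinning, 3 with mixed cells kept and 8 with a minimum of 10 CPM. For miR-146a-/- over DEN-CDHFD WT it became 8 with a minimum of 10 CPM, which lets in more genes. For DKO over miR-146a-/- the count of 3 became 1 without cells that had a Negr1 UMI. Apart from the minimum and the Negr1 restriction, which change what is counted, the cause was not tested. Of the pairs past the limit, Fcgr2b in classical monocytes ranged from -0.67 to -0.22 and Fcgr1 in patrolling monocytes from 0.65 to 2.06 for DEN-CDHFD WT over young WT. Fcer1g in B cells ranged from 0.61 to 1.34 for DEN-CDHFD WT over young WT and from -0.85 to -0.14 for DKO over miR-146a-/-. Fcgr4 in C1q macrophages ranged from 0.12 to 1.58 for DKO over miR-146a-/- and from 1.51 to 2.10 for miR-146a-/- over DEN-CDHFD WT. The 10 shares recomputed at other depths all moved, with Fcgr4 in DKO patrolling monocytes at 76.7% unthinned, and the 5 exact means over all draws stayed within the intervals. Of 20 highest classes 11 changed under another gate, and with mixed cells kept part of the T cells' transcripts enter the myeloid sums. Of 5 likeness lists, 1 for each member, 4 changed with a pseudocount of 1. No paired analysis was possible because each group is 1 library and the replicate number in the labels pairs no animals. The young WT library had the fewest C1q macrophages (33) and classical monocytes (48).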
